A study of Mus musculus with 6 samples.

Results

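The integrin family genes were taken as every gene of the expression table whose symbol begins with Itg, with pseudogenes left out, and 31 of the 41709 genes met this rule. They comprise 18 alpha subunits, 9 beta subunits and 4 genes that carry the name without encoding a receptor subunit (Itgb1bp1, Itgb1bp2, Itgb3bp and Itgbl1). The table holds TPM values, a gene's share of the transcripts of a library after correction for transcript length, so levels can be compared between genes, but every value depends on what the rest of the library holds. TPM keeps no read depth, and no counting error can be given.

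The RNA came from 6 tibialis anterior muscles of male C57BL/6J mice, the limb muscle at the front of the shin. The study put a pCMV6 plasmid encoding Flag-tagged Lrpprc into the muscle by electroporation, wild type in 3 muscles (LrpprcWT) and the proline-to-alanine variant in the opposite muscle of the same animals (LrpprcP27A, n = 3), and collected them 14 days later. Every muscle thus received a plasmid, carried its own Lrpprc gene and was electroporated, and no muscle without plasmid is among the libraries. The study kept young and old mice, and which age these muscles came from is not given in the sources used here. Lrpprc itself, where plasmid and endogenous transcripts are counted together, had 35.1, 37.0 and 75.2 TPM in LrpprcWT replicates 1, 2 and 3 and 26.9, 29.7 and 26.0 TPM in LrpprcP27A. Each LrpprcP27A library was below each LrpprcWT library, as for 47.6% of the 11611 genes with a mean of at least 1 TPM. By qRT-PCR the study found similar Lrpprc mRNA levels with both plasmids. In these libraries the Lrpprc level and the variant differed together. Mitochondrially encoded genes took 36.0 to 45.2% of the TPM with LrpprcWT and 44.2 to 46.1% with LrpprcP27A. Markers of muscle fibres were abundant in every library, with Acta1 alone between 35108 and 44523 TPM, whereas keratinocyte Krt5 was at 0 throughout.

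Integrins are heterodimers of one alpha and one beta subunit that span the cell membrane, bind matrix proteins or receptors of neighbouring cells outside, and join the actin cytoskeleton through talin, kindlin and related adaptors inside. In skeletal muscle the pair of Itga7 and Itgb1 is the main laminin receptor of the fibre and is concentrated at myotendinous and neuromuscular junctions, and mutations of the human alpha subunit cause a congenital myopathy. Other subunits belong to fibroblasts, vessels, nerve or leukocytes, so a whole muscle reads all of them together.

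Itgb1bp2 and Itgb1 were the most abundant integrin family genes, and with LrpprcP27A both were at less than 0.60 times their LrpprcWT mean. Of the 22 family members with a mean of at least 1 TPM, 12 were lower with LrpprcP27A at a limma adjusted p under 0.05 and 0 were higher. That is 54.5% of the tested members called lower, where 23.3% of all 11611 tested genes were called lower and 1.34% higher. The 12 include Itgb3 and Itgax, whose LrpprcP27A means were under 1 TPM, so these 2 were tested only through their LrpprcWT level. Before adjustment limma put 14 members lower and 1 higher at 0.05. The Kruskal-Wallis test gave 14 lower and 0 higher before adjustment and 0 in either direction after it. With 3 muscles against 3 its smallest p is just under 0.05, reached only where the groups do not overlap. Its 14 are thus the non-overlapping members given below, and the 0 after adjustment followed from the group size. The log2 fold change, on the scale of log2(TPM + 1), was below 0 in 20 of the 22 members and in 88% of all tested genes. The member median was -0.62 beside -0.32 over all tested genes. In 14 members (63.6%) each LrpprcP27A library was below each LrpprcWT library, a pattern shown by 47.6% of all tested genes, and in 0 members were all LrpprcP27A libraries higher, against 3.51% of the genes. In whole muscle, fewer cells of a type and less RNA per cell cannot be told apart.

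**Figure D1:**
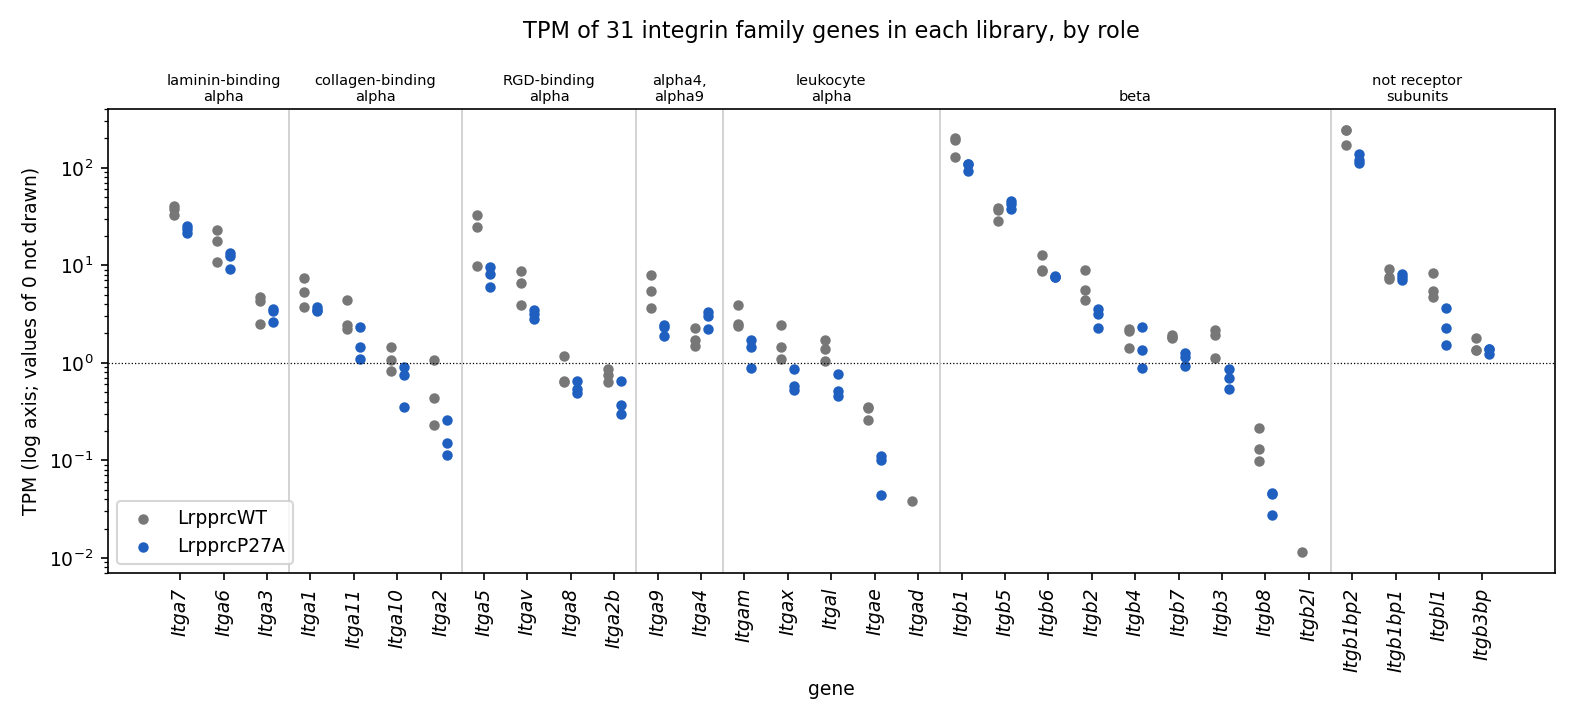
TPM of each of the 31 integrin family genes (log axis) in the 3 LrpprcWT (grey) and 3 LrpprcP27A (blue) libraries, ordered by role and level; the dotted line marks 1 TPM and values of 0 are not drawn. Itgb1bp2 and Itgb1 were at 93.6 TPM or more in every library, and Itgb5 and Itga4 were the tested members with a higher mean in LrpprcP27A.

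The calls depended on single libraries and on how the libraries were scaled. Without LrpprcWT replicate 1, LrpprcWT replicate 3 or LrpprcP27A replicate 3, 0 members were called, where limma called 2.51%, 0.129% and 3.79% of all genes lower. Without LrpprcP27A replicate 2, 2 members were called lower (4.34% of all genes), and without LrpprcP27A replicate 1, 9 members (14.5%). Without LrpprcWT replicate 2, the lowest LrpprcWT library in 16 of the 22 members, 17 were called lower (59.5% of all genes). The swings thus ran through the whole table and not the integrin genes alone. With the replicate number as a block 16 members were lower and 1 higher, where 48.4% of all genes were called lower and 2.69% higher. After median-of-ratios scaling, which brings the median gene to about the same level in each library, Itgb1bp2 and Itga9 were called lower and Itga4 higher (6.03% of all genes lower, 5.25% higher), and with this scaling and the block 8 members were lower and 2 higher (15.8% and 13.4% of all genes). The member median stayed below that of all genes after scaling, at -0.30 against -0.0047.

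The promoters of all 31 members were read from the genome, and 5 of them are shown. No collagen-binding, RGD-binding, alpha4 or alpha9 subunit is among the 5. Each is the 250 bases before the annotated transcript start, on the plus strand of GRCm39, with a short word in capitals on either strand. Only the word named is marked, so CAGCTG in Itgb5 and CCGCCC in Itgam stay in small letters. Itga7 (chr10:128769371-128769620) and Itgb5 (chr16:33649738-33649987), a called and an uncalled subunit of the muscle, are shown with the GC box GGGCGG or its complement CCGCCC.
Itga7: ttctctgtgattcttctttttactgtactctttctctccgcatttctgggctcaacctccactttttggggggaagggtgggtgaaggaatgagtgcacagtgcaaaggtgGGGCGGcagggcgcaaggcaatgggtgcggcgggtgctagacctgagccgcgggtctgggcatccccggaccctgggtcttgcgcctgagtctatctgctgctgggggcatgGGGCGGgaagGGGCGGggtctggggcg
Itgb5: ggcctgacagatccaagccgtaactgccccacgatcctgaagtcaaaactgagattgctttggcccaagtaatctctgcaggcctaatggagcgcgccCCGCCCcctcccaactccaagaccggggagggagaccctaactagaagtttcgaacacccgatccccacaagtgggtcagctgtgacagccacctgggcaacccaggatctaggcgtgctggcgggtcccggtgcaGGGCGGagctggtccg
Itgam (chr7:127661558-127661807) and Itgal (chr7:126895182-126895431), both leukocyte alpha subunits, are shown with GAGGAA or its complement TTCCTC, a word of the kind bound by Ets factors such as PU.1.
Itgam: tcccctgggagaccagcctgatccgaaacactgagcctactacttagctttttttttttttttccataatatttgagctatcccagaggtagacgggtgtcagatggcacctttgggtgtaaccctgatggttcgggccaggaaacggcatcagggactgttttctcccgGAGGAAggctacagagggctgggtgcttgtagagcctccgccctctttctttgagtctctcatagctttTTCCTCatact
Itgal: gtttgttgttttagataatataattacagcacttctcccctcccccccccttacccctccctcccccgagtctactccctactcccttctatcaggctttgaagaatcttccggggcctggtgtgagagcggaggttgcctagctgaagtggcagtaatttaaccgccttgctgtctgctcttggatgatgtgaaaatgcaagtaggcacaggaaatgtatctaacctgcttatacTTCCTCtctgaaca
Itgb1bp2 (chrX:100492418-100492667), the muscle chaperone gene, is shown with CAGCTG, an E-box of the kind bound by MyoD.
Itgb1bp2: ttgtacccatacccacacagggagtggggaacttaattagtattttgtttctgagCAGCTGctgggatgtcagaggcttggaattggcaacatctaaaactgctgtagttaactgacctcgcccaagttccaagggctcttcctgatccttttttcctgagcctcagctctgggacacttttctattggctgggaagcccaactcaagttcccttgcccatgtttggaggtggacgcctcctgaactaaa
The GC box stood in 11 of the 31 member promoters (35.5%) and in 36.3% of 21770 protein-coding promoters of the same length. GAGGAA was present in 9 members (29.0%, against 22.9%), CAGCTG in 5 (16.1%, against 11.9%) and TATAAA in 2 (6.45%, against 11.9%). Over the 10928 promoters of tested protein-coding genes the GC box stood in 49.7%, GAGGAA in 23.2%, CAGCTG in 11.3% and TATAAA in 7.39%. The reading for the GC box and TATAAA thus depends on the comparison set. Of the 5 leukocyte alpha promoters, GAGGAA was in the 2 shown and not in those of Itgax, Itgae and Itgad. It was in neither Itgb2 nor Itgb7, whereas Itgb2l held it at 2 places. The words did not overlap one another in these promoters. Matches are descriptions of the letters only, and members with and without a word were found among both the called and the other genes.

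The alpha subunits summed to 142, 78.3 and 117 TPM in LrpprcWT replicates 1, 2 and 3, and to 68.2, 59.5 and 64.7 TPM in LrpprcP27A. Of the 3 laminin-binding alpha subunits, 1 (33.3%) was called lower, beside 23.3% of all tested genes. Itga7 (chr10:128769621-128794169, plus strand), the laminin receptor subunit of the fibre, had 40.3, 32.6 and 37.6 TPM with LrpprcWT and 23.5, 25.3 and 21.5 TPM with LrpprcP27A. All LrpprcP27A muscles were below all LrpprcWT muscles. Its log2 fold change was -0.63 (SE 0.12, limma adjusted p = 0.018), and the adjusted p after median-of-ratios scaling was 0.12 without and 0.041 with the block. The sum of 10 muscle fibre markers, 139466 to 153611 TPM with LrpprcWT and 126641 to 142712 TPM with LrpprcP27A, overlapped between the groups. Of the 10 markers 3 (30%) were called lower, beside 23.3% of all tested genes. The sum of 6 satellite cell markers, the stem cells of muscle, was 46.2 to 66.2 TPM against 32.1 to 40.2 TPM, with Myod1 the most abundant. Limma called 2 of 5 tested markers lower (40%), and 4 (80%) with the block, where 48.4% of all genes were lower. The part of these cells in the level of Itga7 was not tested.

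Itga6, the laminin receptor subunit of vessels, nerve and satellite cells, had 22.9, 10.7 and 17.9 TPM with LrpprcWT and 12.5, 9.24 and 13.2 TPM with LrpprcP27A. The groups overlapped through LrpprcWT replicate 2, although each pair was lower with LrpprcP27A. Itga6 did not pass without pairing (log2 fold change -0.48, SE 0.25, limma adjusted p = 0.16) and was called lower with the replicate block (adjusted p = 0.0083). Itga3, a laminin receptor subunit of epithelia and kidney, ranged over 2.52 to 4.71 TPM with LrpprcWT and over 2.65 to 3.57 TPM with LrpprcP27A. Its log2 fold change of -0.18 (SE 0.20, limma adjusted p = 0.48) turned to 0.12 after median-of-ratios scaling.

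Of the 4 collagen-binding alpha subunits, Itga1 and Itga11 were tested and neither was called without pairing. Itga1, which prefers the collagen of basement membranes, had 7.47, 3.75 and 5.30 TPM with LrpprcWT and 3.72, 3.50 and 3.36 TPM with LrpprcP27A. The groups did not overlap, but LrpprcWT replicate 2 and LrpprcP27A replicate 1 lay next to each other, and the log2 fold change was -0.48 (SE 0.21, limma adjusted p = 0.098; 0.013 with the block). Itga11, the fibrillar collagen receptor subunit of fibroblasts, had 4.43, 2.24 and 2.45 TPM with LrpprcWT and 2.35, 1.08 and 1.45 TPM with LrpprcP27A. Each pair was lower with LrpprcP27A while the groups overlapped, and the difference was -0.61 (SE 0.24, limma adjusted p = 0.086; 0.0018 with the block). Itga10, a cartilage receptor subunit, and Itga2, the collagen receptor subunit of platelets and epithelia, were under the filter and overlapped between the groups, at 0.35 to 1.44 TPM and at 0.11 to 1.06 TPM over the 6 libraries.

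Both tested members of the group that reads the Arg-Gly-Asp (RGD) motif were called lower, where 23.3% of all tested genes were. After median-of-ratios scaling neither was called (6.03% of all genes). Itga5 (chr15:103252713-103275270, minus strand), the fibronectin receptor subunit, had 33.2, 9.76 and 24.8 TPM with LrpprcWT and 9.59, 5.93 and 8.24 TPM with LrpprcP27A. LrpprcWT replicates 1 and 3 were far above all others, and LrpprcWT replicate 2 lay just above LrpprcP27A replicate 1. The log2 fold change of -1.27 was the lowest of the tested members (SE 0.38, limma adjusted p = 0.042), and the mean with LrpprcP27A was 0.35 times that with LrpprcWT. After median-of-ratios scaling the difference was -0.92, with an adjusted p of 0.10 without and 0.013 with the block. Itgav (chr2:83554403-83637260, plus strand), which pairs with several beta subunits to bind vitronectin and to release latent TGF-beta, had 8.77, 3.89 and 6.56 TPM with LrpprcWT and 2.83, 3.52 and 3.14 TPM with LrpprcP27A. The LrpprcP27A values lay close together below the LrpprcWT values, and the log2 fold change was -0.78 (SE 0.24, limma adjusted p = 0.045; 0.12 after median-of-ratios scaling, 0.11 with the block too). Itga8, a subunit of smooth muscle and mesenchyme, and Itga2b, the platelet fibrinogen receptor subunit, were under the filter. Itga8 ranged over 0.64 to 1.18 TPM with LrpprcWT and 0.49 to 0.66 TPM with LrpprcP27A, and Itga2b over 0.63 to 0.87 TPM and 0.30 to 0.64 TPM, so both overlapped.

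Itga5, Itgav, Itga1 and Itga11 are all expressed by fibroblasts, and Itga5, Itgav and Itga1 by endothelium too. The sum of 7 fibroblast markers was 222 to 392 TPM with LrpprcWT and 107 to 175 TPM with LrpprcP27A, with Dcn the most abundant. Limma called 6 of the 7 lower (85.7%), where 23.3% of all tested genes were lower. The sum of 8 endothelial markers was 214 to 376 TPM and 162 to 226 TPM, which overlapped but was lower with LrpprcP27A in 3 of 3 pairs. Of the 8 markers 1 (12.5%) was called lower, Cdh5 (VE-cadherin), also the most abundant. With the replicate block 7 (87.5%) were lower, where 48.4% of all genes were. Mural cell markers, for the pericytes and smooth muscle around vessels, also overlapped in their sum at 280.3 to 401 TPM and 219 to 301 TPM, with Rgs5 the most abundant. This sum too was lower in 3 of 3 pairs. Limma called 2 of the 7 mural markers lower (28.6%), and 5 (71.4%) with the block. What these cell types contributed to the 4 subunits was not tested.

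Itga4 and Itga9 are close relatives that share ligands such as VCAM-1 and osteopontin, and they lay on opposite sides of zero. Itga9 (chr9:118435722-118730072, plus strand) had 7.95, 3.66 and 5.43 TPM with LrpprcWT and 2.34, 1.87 and 2.45 TPM with LrpprcP27A. The groups were well apart, with a log2 fold change of -1.01 (SE 0.23, limma adjusted p = 0.025), and Itga9 was still called after median-of-ratios scaling (adjusted p = 0.045). Itga4 (chr2:79085660-79163467, plus strand), a subunit of lymphocytes, monocytes and developing muscle, had 2.28, 1.73 and 1.48 TPM with LrpprcWT and 2.24, 3.01 and 3.33 TPM with LrpprcP27A. LrpprcP27A replicates 2 and 3 were above every LrpprcWT library, whereas in the first pair the values were nearly equal and the groups overlapped. The log2 fold change was 0.45 (SE 0.17, limma adjusted p = 0.078). Itga4 was called higher with the block (adjusted p = 0.026), and after median-of-ratios scaling (0.70, adjusted p = 0.040). Its exons overlap those of Cerkl on the other strand, which the library kit does not separate, and Cerkl was at 0.10 TPM with LrpprcWT and 0.048 TPM with LrpprcP27A on average.

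Itgb1 (chr8:129411876-129460618, plus strand), the common partner of most alpha subunits of muscle and matrix, was the most abundant beta subunit at 202, 128 and 192 TPM with LrpprcWT and 109.8, 93.6 and 109.0 TPM with LrpprcP27A. The LrpprcP27A muscles were all below the LrpprcWT muscles, with LrpprcWT replicate 2 the nearest. The log2 fold change was -0.71 (SE 0.17, limma adjusted p = 0.027). After median-of-ratios scaling it was -0.34, with an adjusted p of 0.076 without and 0.023 with the block.

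Itgb5 (chr16:33649988-33771137, plus strand), the partner of Itgav in a vitronectin receptor, was the next beta subunit and had 28.6, 38.4 and 36.9 TPM with LrpprcWT and 37.4, 42.9 and 45.7 TPM with LrpprcP27A. It was higher with LrpprcP27A in 3 of 3 pairs, the only tested member lower in 0 pairs, but the groups overlapped. The log2 fold change of 0.28 did not pass (SE 0.14, 95% interval -0.05 to 0.60, limma adjusted p = 0.15; 0.062 with the block). With median-of-ratios scaling it was 0.64, which did not pass without the block (adjusted p = 0.063) and passed with it (0.013). As a share of the summed TPM of all beta subunits, Itgb5 was 15.5% ± 4.81 (SD, n = 3) with LrpprcWT and 26.3% ± 3.01 with LrpprcP27A, while Itgb1 was 74.8% ± 5.07 and 65.0% ± 2.32.

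A ratio of genes within a library does not move with the scaling of that library, so 8 ratios were computed, chosen after the values of the members had been seen and given without a test. Itgb5 over Itgb1 was 0.14, 0.30 and 0.19 with LrpprcWT and 0.34, 0.46 and 0.42 with LrpprcP27A, so that the groups did not overlap. Itga4 over Itgb1 was likewise higher in each LrpprcP27A library, at 0.0077 to 0.013 against 0.020 to 0.032. Itgb1 itself had a log2 fold change of -0.71, beside a median of -0.32 over all tested genes. A gene at that median would thus also be higher over Itgb1. The share of all genes whose ratio to Itgb1 was apart between the groups was not computed. Itga7 over Itgb1, the fibre's laminin receptor, overlapped at 0.20 to 0.25 in LrpprcWT and 0.20 to 0.27 in LrpprcP27A. Itgb1bp2 over Itgb1 overlapped too, with means of 1.27 ± 0.064 (SD, n = 3) and 1.20 ± 0.15. The ratios of Itga5 to Itga7, Itga6 to Itga7, Itgb2 to Itgb1 and Itgam to Itgb2 also overlapped.

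**Figure D2:**
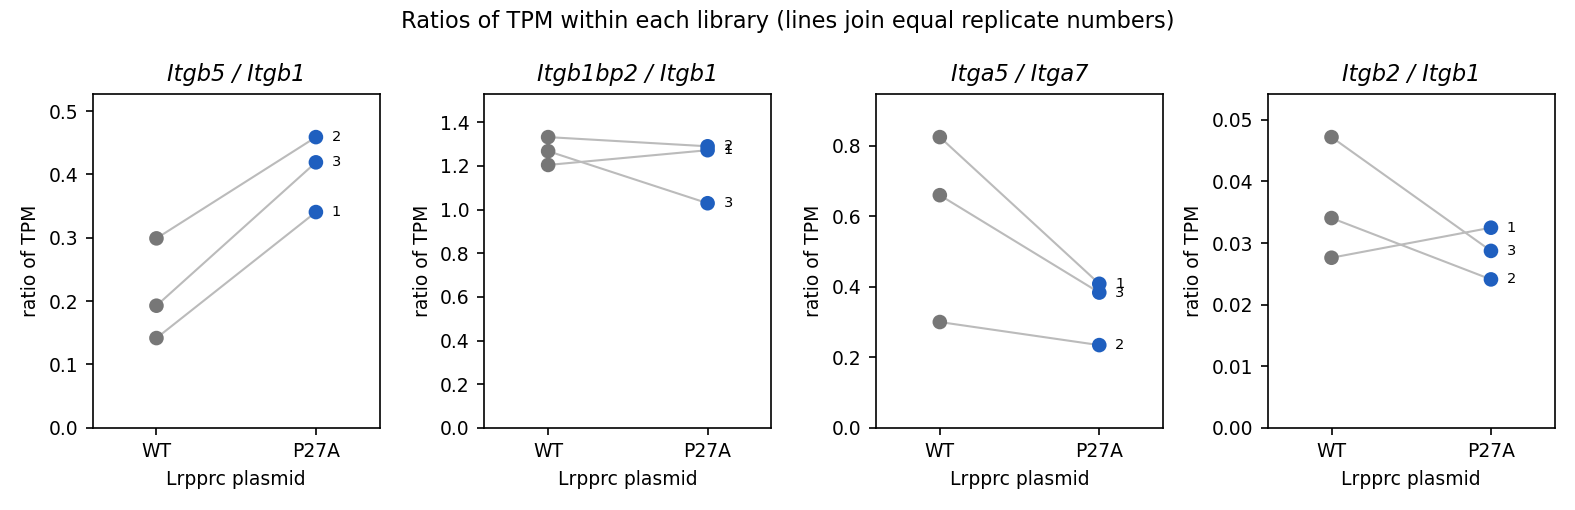
Ratios of TPM of pairs of genes within each library, with LrpprcWT (grey) and LrpprcP27A (blue) points of the same replicate number joined; the axes start at 0. Itgb5 over Itgb1 was 0.14 to 0.30 with LrpprcWT and 0.34 to 0.46 with LrpprcP27A, while the other 3 ratios plotted overlapped between the groups. The share of all genes apart in their ratio to Itgb1 was not computed.

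The remaining beta subunits were lower in level. Itgb6, an epithelial partner of Itgav that releases latent TGF-beta, had 12.6, 8.79 and 8.98 TPM with LrpprcWT and 7.62, 7.69 and 7.67 TPM with LrpprcP27A. The groups did not overlap, but LrpprcWT replicate 1 stood above the other libraries and the test was not passed (log2 fold change -0.34, SE 0.16, limma adjusted p = 0.11; 0.042 with the block). The sum of 6 epithelial markers was at most 0.58 TPM in any library, below the level of Itgb6 in each. Itgb4, the partner of Itga6 in epithelia and Schwann cells, had 2.11, 2.21 and 1.43 TPM with LrpprcWT and 2.34, 0.89 and 1.37 TPM with LrpprcP27A. It overlapped between the groups (log2 fold change -0.23, SE 0.22, limma adjusted p = 0.40), as did the sum of 6 Schwann cell markers, at 53.9 to 67.8 TPM and 30.6 to 60.0 TPM. Pmp22 was the most abundant and the 1 marker called of 4 tested (25%), where 23.3% of all tested genes were called lower.

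Itgb3 (chr11:104498826-104561302, plus strand), the partner of Itgav in vessels and osteoclasts and of Itga2b in platelets, had 1.91, 1.11 and 2.19 TPM with LrpprcWT and 0.87, 0.54 and 0.71 TPM with LrpprcP27A. The groups did not overlap (log2 fold change -0.67, SE 0.18, limma adjusted p = 0.036; 0.066 after median-of-ratios scaling, 0.027 with the block too). Its LrpprcP27A mean was under 1 TPM, as was that of Itgax, so these 2 genes were tested only through their LrpprcWT level. Platelet markers summed to 12.8 to 30.0 TPM with LrpprcWT and 8.86 to 16.1 TPM with LrpprcP27A and overlapped, with Pf4 the most abundant and 0 of 2 tested markers called by limma (1 before adjustment). Itgb8, another activator of TGF-beta, was under the filter at 0.099 to 0.21 TPM and 0.028 to 0.046 TPM, without overlap.

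Itgb2, Itgam, Itgax and Itgb7, subunits of leukocyte integrins, were called lower with LrpprcP27A. Itga4, which leukocytes also carry as the partner of Itgb7, was on the other side of zero, as given above. Itgb2 (chr10:77366086-77401542, plus strand), the beta subunit shared by leukocyte receptors, had 5.58, 4.37 and 9.04 TPM with LrpprcWT and 3.57, 2.25 and 3.13 TPM with LrpprcP27A. Each LrpprcP27A library was below each LrpprcWT library, with LrpprcWT replicate 3 the highest, and the log2 fold change was -0.84 (SE 0.24, limma adjusted p = 0.039). After median-of-ratios scaling the adjusted p was 0.099 without and 0.041 with the block.

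Itgam (chr7:127661808-127717753, plus strand), the complement receptor subunit of macrophages and neutrophils, had 2.37, 2.52 and 3.88 TPM with LrpprcWT and 1.72, 0.89 and 1.46 TPM with LrpprcP27A. Again the groups were apart (log2 fold change -0.73, SE 0.20, limma adjusted p = 0.035). Itgax, the subunit of dendritic cells and some macrophages, had 1.47, 1.09 and 2.45 TPM and 0.87, 0.53 and 0.58 TPM in the same order. Its difference was -0.66 (SE 0.20, limma adjusted p = 0.044), in a gene tested only through its LrpprcWT level. Itgb7, a beta subunit of gut-homing and intraepithelial lymphocytes, was even within LrpprcWT at 1.82, 1.81 and 1.95 TPM and lay at 1.14, 0.94 and 1.27 TPM with LrpprcP27A. Its log2 fold change was -0.44 (SE 0.13, limma adjusted p = 0.046). None of these 3 was called after median-of-ratios scaling, where their adjusted p were 0.10, 0.097 and 0.21 without the block and 0.080, 0.072 and 0.19 with it.

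The other leukocyte alpha subunits were under the filter. Itgal, the lymphocyte subunit that pairs with Itgb2 to bind ICAM-1, had 1.70, 1.06 and 1.39 TPM with LrpprcWT and 0.77, 0.46 and 0.51 TPM with LrpprcP27A. Itgae, the partner of Itgb7 that binds E-cadherin, was at 0.26 to 0.35 TPM and 0.044 to 0.11 TPM. Neither overlapped between the groups. Of the 9 untested members 3 (33.3%; Itgal, Itgae and Itgb8) had all LrpprcP27A libraries lower, as had 19.6% of the 9839 genes above 0 and under the filter. Itgad and Itgb2l, a myeloid relative of Itgb2, were each listed at 0 in 5 of the 6 libraries.

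The leukocyte genes sit partly together in the genome. Itgam, Itgax and Itgad lie one after the other on chromosome 7, with 10.9 kb between the first pair and 3.7 kb between the second. In these gaps 0 protein-coding genes lie whole, and Itgal lies 727.5 kb before Itgam. Markers of macrophages and monocytes summed to 232 to 434 TPM with LrpprcWT and 79.0 to 146 TPM with LrpprcP27A, without overlap, with Lyz2 the most abundant. Limma called 7 of 8 tested markers lower (87.5%), where 23.3% of all tested genes were lower. Among the 7, Fcgr1 had 2.13, 1.28 and 3.94 TPM with LrpprcWT and 0.89, 0.26 and 0.94 TPM with LrpprcP27A. It was thus tested only through its LrpprcWT level. The untested Cd163, a scavenger receptor of resident macrophages, was higher in each LrpprcP27A library, at 0.31, 0.58 and 0.48 TPM with LrpprcWT and 1.08, 0.82 and 1.67 TPM with LrpprcP27A; it was named after its values were seen. T, NK and B cell markers were low in level, at 3.95 to 5.08 TPM against 1.42 to 2.84 TPM with Cd79a the most abundant. Neutrophil markers overlapped at 35.2 to 57.1 TPM against 25.4 to 41.3 TPM with S100a9 the most abundant. In these lists 0 of 1 and 0 of 4 tested markers were called by limma (0 and 1 before adjustment). With the block 1 and 2 were lower, where 48.4% of all genes were. Cd79a, the 1 tested lymphocyte marker, had an LrpprcP27A mean of 0.92 TPM and was tested only through its LrpprcWT level. Macrophage marker sums thus moved with the leukocyte subunits, and their part in those differences was not tested.

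**Figure D3:**
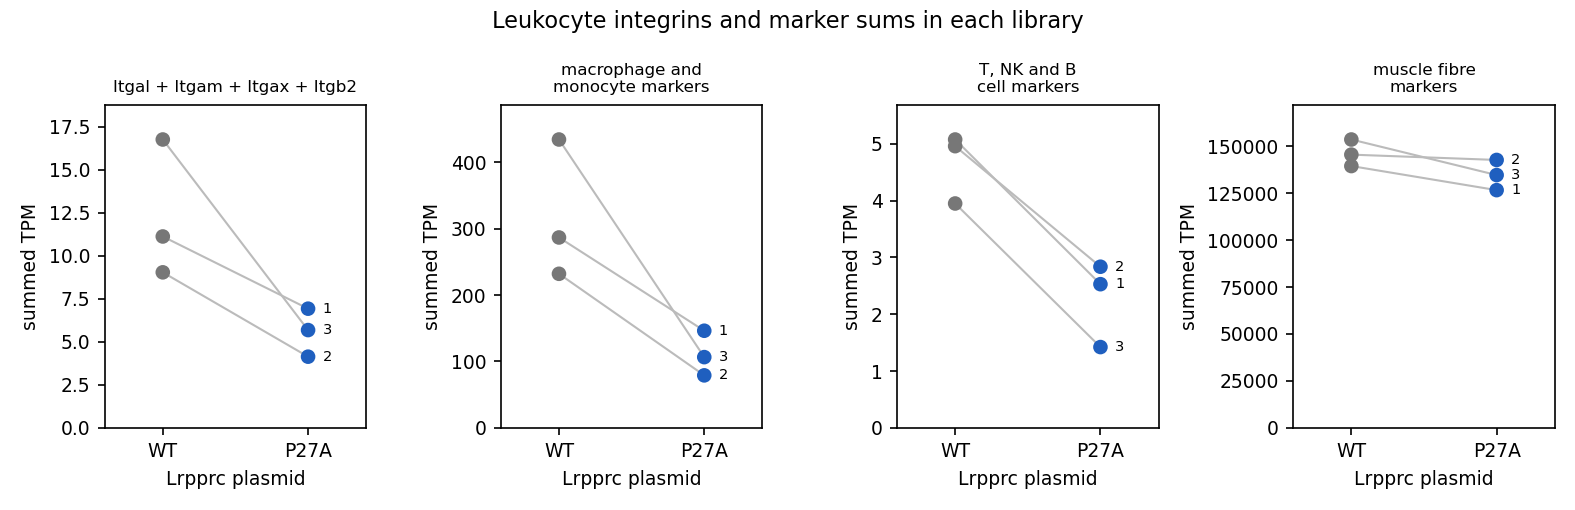
Summed TPM in each library of Itgal, Itgam, Itgax and Itgb2 and of 3 marker lists, with points of the same replicate number joined; the axes start at 0. The leukocyte integrins (9.04 to 16.8 TPM with LrpprcWT, 4.14 to 6.93 TPM with LrpprcP27A) and the macrophage and lymphocyte sums were apart between groups, and the muscle fibre sums overlapped.

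Of the 4 genes that are not receptor subunits, 2 (50%) were called lower, beside 23.3% of all tested genes. Itgb1bp2 (chrX:100492665-100508645, plus strand) encodes melusin, a chaperone-like protein of striated muscle that binds the cytoplasmic tail of the Itgb1 product, and it was the most abundant family member. It had 243, 171 and 243 TPM with LrpprcWT and 139.7, 121 and 112 TPM with LrpprcP27A. The groups did not overlap, the log2 fold change was -0.80 (SE 0.16, limma adjusted p = 0.018), and the call held after median-of-ratios scaling (-0.43, adjusted p = 0.047). Itgbl1 (chr14:123897383-124215765, plus strand), a secreted protein with repeats like those of beta subunits, had 8.38, 4.75 and 5.39 TPM with LrpprcWT and 3.69, 1.53 and 2.28 TPM with LrpprcP27A. It too did not overlap, with a log2 fold change of -1.05 (SE 0.26, limma adjusted p = 0.028; 0.079 after median-of-ratios scaling, 0.012 with the block too).

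Itgb1bp1, which encodes ICAP-1, a binding partner of the Itgb1 tail that limits receptor activation, had 7.21, 7.57 and 9.16 TPM with LrpprcWT and 7.65, 8.17 and 7.002 TPM with LrpprcP27A. It overlapped, with a log2 fold change of -0.06 (SE 0.14, 95% interval -0.37 to 0.26, limma adjusted p = 0.74), so the tail-binding partners of Itgb1 differed in their values, a difference that was not tested. Itgb3bp, a gene whose product sits at the centromere and is also known as CENP-R, had 1.36, 1.37 and 1.80 TPM and 1.39, 1.38 and 1.23 TPM (log2 fold change -0.10, SE 0.14, limma adjusted p = 0.55). Both values turned above 0 after median-of-ratios scaling, at 0.27 and 0.12.

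**Figure D4:**
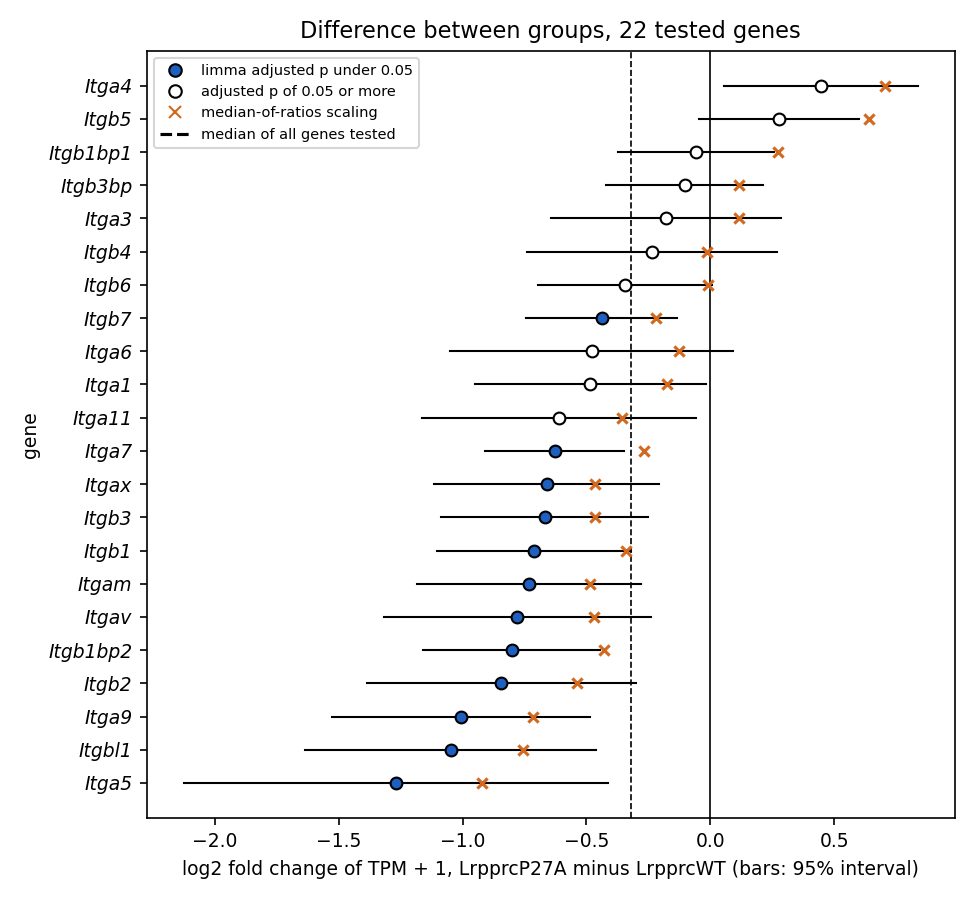
Log2 fold change of TPM + 1 (LrpprcP27A minus LrpprcWT, with its 95% interval) for the 22 tested members; filled points passed limma at an adjusted p under 0.05, crosses give the value after median-of-ratios scaling and the dashed line is the median of all tested genes (-0.32). The 12 filled points lie between -1.27 for Itga5 and -0.44 for Itgb7, and with the scaling 2 of these genes were still called.

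Genes for the proteins that integrins bind outside the cell, matrix proteins and cell-surface receptors among them, were mostly lower with LrpprcP27A. Of 31 ligand genes 26 were tested, and limma called 19 (73.1%) lower and 0 higher (22 and 0 before adjustment), where 23.3% of all tested genes were lower. The list had a median of -1.12 on the log2 scale, beside -0.32 over all tested genes. After median-of-ratios scaling 11 (42.3%) were called lower, against 6.03% of all genes. Col3a1, a fibrillar collagen of loose connective tissue, was the most abundant at 615, 342 and 578 TPM with LrpprcWT and 184, 79.8 and 95.7 TPM with LrpprcP27A (log2 fold change -2.14, SE 0.32, limma adjusted p = 0.012). The lowest values were those of Postn, Col1a1 and Spp1. Postn, the matricellular ligand of Itgav receptors, had 83.3, 25.7 and 59.1 TPM and then 10.6, 2.77 and 4.99 TPM (-3.00, SE 0.47, limma adjusted p = 0.013). Col1a1, the main collagen of tendon and scar, had 491, 324 and 453 TPM and then 164, 58.2 and 73.0 TPM (-2.22, SE 0.34, limma adjusted p = 0.012). Spp1, the osteopontin bound by Itga9, Itga4 and Itgav receptors, had 9.18, 5.36 and 14.8 TPM and then 2.77, 0.65 and 0.83 TPM (-2.16, SE 0.38, limma adjusted p = 0.016). None of the 4 overlapped between the groups, where 47.6% of all tested genes had every LrpprcP27A library lower. All 4 were called by limma after scaling, with adjusted p between 0.026 and 0.033. Postn, Col1a1 and Spp1 were picked for their low values in these same data, so this adds no separate evidence. The fibrinogen genes Fga, Fgb and Fgg, made in liver, were at 0 in all libraries.

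Among 40 adaptor and signalling genes, 36 were tested, and limma called 13 (36.1%) lower and 0 higher (24 and 0 before adjustment), against 23.3% of all genes lower. The 13 include Fermt3 and Apbb1ip, at 1.21, 0.64 and 0.71 TPM and at 0.96, 0.66 and 0.71 TPM with LrpprcP27A. Both were tested only through their LrpprcWT level. The list had a median of -0.56. With the block 25 (69.4%) were lower and 0 higher, against 48.4% of all genes lower. After median-of-ratios scaling 2 (5.56%) were lower, about the 6.03% of all genes. Flnc, the muscle filamin that links integrins and sarcomere, was the most abundant and ranged over 195 to 305 TPM with LrpprcWT and 212 to 299 TPM with LrpprcP27A. It overlapped (log2 fold change -0.13, SE 0.20, limma adjusted p = 0.60), and the value was 0.24 after scaling. The lowest called values were -0.92 for Cd9, a tetraspanin that associates with integrins (SE 0.20, limma adjusted p = 0.024), -0.85 for Rap1b, a GTPase that activates them (SE 0.23, limma adjusted p = 0.037), and -0.83 for Parva, a partner of integrin-linked kinase (SE 0.21, limma adjusted p = 0.029). Cd9 had 39.3, 24.7 and 35.3 TPM with LrpprcWT and 20.5, 13.2 and 17.2 TPM with LrpprcP27A, with no overlap. For these 3 the adjusted p after scaling were 0.054, 0.10 and 0.059. Fermt1, the kindlin of keratinocytes, was at 0 in all libraries. Without LrpprcWT replicate 3 none of the genes named here as called, members or partners, kept an adjusted p under 0.05 in limma. Myf5, Fcgr1, Fermt3 and Apbb1ip are left out of that statement, as they were not followed over the settings.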

How the data were processed

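RNA was extracted from 6 muscles, and libraries were prepared with a TruSeq RNA v2 kit, which does not mark strand. Per the study's methods the reads were aligned to GRCm39 in CLC Genomics Workbench, and the authors deposited TPM per gene. The files hold no counts, so the depth per library is unknown and precision rests on the spread over n = 3 muscles per group.

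The 11611 genes that averaged at least 1 TPM were transformed to log2(TPM + 1) and compared with limma 3.58.1 (R 4.3.3; linear model, empirical Bayes with trend), with Benjamini-Hochberg adjustment over those genes and a threshold of 0.05. The SE is limma's moderated one. Fold changes understate the change of low genes. Same-numbered libraries, contralateral muscles per the study, deviated together (r = 0.36, 0.53 and 0.36 across genes), and the fit was repeated with the replicate number as a block. Other alternatives were median-of-ratios scaling with and without the block, rescaling after leaving out mitochondrially encoded and ribosomal RNA genes, quantile normalization, another pseudocount (0.1), no filter, a mean of at least 5 TPM, no trend, the Kruskal-Wallis test of the study's methods, and each library left out in turn.

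Every family member is named. Of the ligand and adaptor lists, the 3 largest called differences in each direction and the most abundant gene are named, and of each marker list its sum and most abundant gene. Called adaptors and markers whose LrpprcP27A mean was under 1 TPM are named too. The members and lists were chosen with earlier results of these data known. Positions and promoters come from GENCODE M39 on GRCm39, matched by symbol for all 31 members.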

Additional observations from a re-analysis of the deposited data

How the results depend on the processing

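The count of members called lower was 12 in the unpaired limma fit and 16 with the replicate block. It was 0 without a filter (0.196% of all genes) and 4 of 8 tested with a mean of at least 5 TPM (22% of all genes). It was 0 with the Kruskal-Wallis test, which called 0 of all genes and whose smallest p at this group size is just under 0.05. It was 2 (9.09%) with median-of-ratios scaling (6.03% of all genes), 2 (9.09%) after rescaling without mitochondrially encoded and ribosomal RNA genes (5.71%) and 1 (4.55%) with quantile normalization (4.46%), the last close to the share of all genes, and it ranged from 0 to 17 with 1 library left out. The count called higher was 0 in the unpaired fit (1.34% of all genes), 1 with the replicate block (2.69%) and 1 with quantile normalization (493 of 11611 genes). It was 1 with median-of-ratios scaling (5.25%) and 2 with median-of-ratios scaling and the block (13.4%). Several members changed sign, as did Flnc, Acta1 and Rgs5, which are named genes outside the family. With median-of-ratios scaling, without and with the block, the log2 fold change was 0.27 for Itgb1bp1, 0.12 for Itgb3bp, 0.12 for Itga3, 0.24 for Flnc, 0.19 for Acta1 and 0.038 for Rgs5. After that rescaling it was 0.12 for Itgb1bp1, 0.011 for Itgb3bp, 0.056 for Flnc and 0.0036 for Acta1. With quantile normalization it was 0.33 for Itgb1bp1, 0.27 for Itgb3bp, 0.23 for Itga3, 0.14 for Itgb4, 0.019 for Itgb6 and 0.10 for Flnc. With 1 library left out, Itgb1bp1 ranged from -0.12 to 0.035, the highest without LrpprcWT replicate 3. The cause was not tested. With 3 muscles per group and no read counts, differences in members near 1 TPM rest on the spread between muscles alone.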

Other observations

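In the annotation, exons of 19 family members overlap those of another gene, and the library kit does not tell the strands apart. For Itgb3bp the partner Pgm1, phosphoglucomutase of glycogen metabolism, was at 631 TPM with LrpprcWT and 660.5 TPM with LrpprcP27A on average, far above the member itself. For Itgad the partner Cox6a2, a muscle subunit of cytochrome c oxidase, was at 1529 and 1470.3 TPM, while Itgad was listed at 0 in 5 libraries. Itgb1bp1 overlaps Cpsf3 (8.42 and 6.36 TPM) and Asap2 (6.03 and 3.15 TPM), Itga1 and Itga2 overlap Mocs2 (8.09 and 6.52 TPM), and Itgb4 overlaps Galk1 (5.35 and 2.89 TPM). How the reads of these exons were shared out is not given in the sources used here.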
